A study of Mus musculus with 4 samples.

Results

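The genes described here were 3 Mitf/Tfe transcription factors, Mitf, Tfeb and Tfec, and the 3 genes of the folliculin complex, Flcn, Fnip1 and Fnip2. An interaction of H3K4me3 HiChIP, a pair of 5-kb bins with more paired reads than a model of the authors expected, was assigned to a member where either bin held a transcription start site (TSS) of its protein-coding transcripts in the basic set of GENCODE M21. This gave 26 interactions of 237102, for 6 genes of 20720 protein-coding autosomal genes. The members had 11 promoter bins of 23780, of which 4 belonged to Mitf, 2 to Tfeb, 1 to Tfec, 2 to Flcn, 1 to Fnip1 and 1 to Fnip2.

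The cells were bone marrow-derived macrophages (BMDMs) of C57BL/6J mice, with no further allele named, differentiated for 7 days in medium with M-CSF. Of the 4 samples, 2 were basal (untreated) and 2 had received 20 ng/mL mouse recombinant IL-4 for 24 h. HiChIP joins DNA ends that lie close together in fixed nuclei and enriches those that carry a chromatin mark, here H3K4me3, which marks active promoters. The list used here was made from the merged reads of all 4 samples. It therefore gave no value per sample, no replicate error and no basal against IL-4 difference, and depth per sample is unknown. Each interaction is given by its observed count of paired reads and by the ratio of observed to expected count, with an exact Poisson 95% interval that covers counting error only. False discovery rates (FDR) are those of the authors' caller, and distances are between bin starts. Every listed pair had a ratio of at least 2.

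Mitf/Tfe factors are basic helix-loop-helix leucine zipper proteins that bind E-box and M-box sequences and switch on genes of lysosome formation and autophagy. When amino acids are plentiful, folliculin with Fnip1 or Fnip2 acts on Rag GTPases at the lysosome, mTORC1 then phosphorylates Tfeb and its relatives, and the phosphorylated factors stay in the cytosol. Mitf is best known from melanocytes, osteoclasts and mast cells and is transcribed from several alternative promoters, and Tfec is known for its expression in macrophages. Tfe3, the further member of the factor family, lies on the X chromosome and was not analysed here.

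Promoter sequences are shown for Mitf and Tfeb, whose numbers of interactions depended on which starts were counted, and for the members in which a searched motif was found. They run from 250 bases before to 50 bases after a RefSeq start, 5′ to 3′ on the strand of the gene, in GRCm38.p6 (mm10). All but the second were taken from RefSeq promoter entries. The second was read from the genome at the start of a RefSeq model transcript 20 kb into Mitf, in the bin where most Mitf interactions met. Capitals mark matches to motifs described after the sequences.
Mitf, first start, chr6:97806808-97807107, plus strand: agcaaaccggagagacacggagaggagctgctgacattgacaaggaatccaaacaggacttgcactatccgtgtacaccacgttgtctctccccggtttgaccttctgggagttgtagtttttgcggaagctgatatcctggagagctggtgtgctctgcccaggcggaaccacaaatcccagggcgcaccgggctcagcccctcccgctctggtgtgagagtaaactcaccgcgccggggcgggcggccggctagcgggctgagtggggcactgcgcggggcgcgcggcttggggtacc
Mitf, model start 20 kb downstream, chr6:97827214-97827513, plus strand: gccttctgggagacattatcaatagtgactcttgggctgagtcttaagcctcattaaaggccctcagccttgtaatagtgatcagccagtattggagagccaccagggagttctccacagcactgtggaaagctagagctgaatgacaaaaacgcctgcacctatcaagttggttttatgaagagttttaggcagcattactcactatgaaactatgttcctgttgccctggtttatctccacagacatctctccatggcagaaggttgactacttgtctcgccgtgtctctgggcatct
Mitf, last start, the melanocyte promoter, chr6:97991533-97991832, plus strand: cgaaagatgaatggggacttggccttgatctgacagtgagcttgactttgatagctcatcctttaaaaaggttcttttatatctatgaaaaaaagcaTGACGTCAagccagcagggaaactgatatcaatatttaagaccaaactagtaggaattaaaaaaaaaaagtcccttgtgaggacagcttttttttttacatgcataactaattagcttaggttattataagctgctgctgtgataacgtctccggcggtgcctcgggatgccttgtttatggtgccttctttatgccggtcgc
Tfeb, first start, chr17:47736787-47737086, plus strand: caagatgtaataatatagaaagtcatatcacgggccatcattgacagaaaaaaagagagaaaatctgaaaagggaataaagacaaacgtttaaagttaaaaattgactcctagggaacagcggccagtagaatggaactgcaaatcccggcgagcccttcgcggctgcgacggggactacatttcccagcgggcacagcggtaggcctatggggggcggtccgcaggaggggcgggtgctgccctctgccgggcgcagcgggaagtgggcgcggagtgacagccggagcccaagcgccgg
Tfec, chr6:16898392-16898691, minus strand: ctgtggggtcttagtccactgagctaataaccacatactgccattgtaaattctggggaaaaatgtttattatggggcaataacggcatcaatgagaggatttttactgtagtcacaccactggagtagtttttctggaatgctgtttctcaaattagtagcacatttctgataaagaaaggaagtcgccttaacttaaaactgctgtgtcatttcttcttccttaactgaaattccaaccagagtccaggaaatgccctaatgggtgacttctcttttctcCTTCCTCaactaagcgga
Flcn, chr11:59809990-59810289, minus strand: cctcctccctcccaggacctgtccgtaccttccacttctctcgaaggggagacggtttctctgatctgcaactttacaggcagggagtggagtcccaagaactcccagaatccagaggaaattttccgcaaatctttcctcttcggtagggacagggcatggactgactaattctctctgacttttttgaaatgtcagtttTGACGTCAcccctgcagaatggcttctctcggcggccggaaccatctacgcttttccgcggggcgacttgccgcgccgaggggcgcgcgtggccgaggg
Fnip1, chr11:54437929-54438228, plus strand: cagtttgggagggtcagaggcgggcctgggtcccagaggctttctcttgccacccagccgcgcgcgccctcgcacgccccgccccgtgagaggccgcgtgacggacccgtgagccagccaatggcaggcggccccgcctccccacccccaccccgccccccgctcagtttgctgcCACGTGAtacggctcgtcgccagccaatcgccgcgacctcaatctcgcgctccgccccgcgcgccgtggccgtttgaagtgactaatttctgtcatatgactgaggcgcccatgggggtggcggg

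In the Fnip1 promoter, the capitals mark an E-box, CACGTG, 75 bases before the start. It is followed by A, which on the other strand makes TCACGTG, the form with a 5′ T that Mitf/Tfe factors prefer. Of 32851 RefSeq promoters, 7.15% held CACGTG and 3.77% held TCACGTG on either strand, the latter being a subset of the former. The capitals in Flcn, 49 bases before the start, and in the last Mitf promoter, 153 bases before the start, are the cyclic AMP response element TGACGTCA, which 1.79% of promoters held. In Tfec, CTTCCTC at 32 bases after the start is the reverse complement of the PU.1 motif GAGGAAG, which 13.6% of promoters held on either strand. The M-box TCATGTG, the AP-1 motif TGANTCA and the EGR motif GCGTGGG were found in none of the 10 members' promoters in the table, and their shares over all promoters were 3.77%, 7.81% and 5.04%. These matches describe letters in a window and no binding was measured.

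At their promoter bins, 5 of the 6 members had at least 1 interaction and Tfeb had none. Over all genes, 63.2% had at least 1. By promoter bin, 6 of the 11 had an interaction, against 57.4% of all promoter bins. Flcn had 11 interactions, Tfec 9, Fnip2 3, Fnip1 2 and Mitf 1. The counts of Flcn and Tfec exceeded those of 74.2% and 71.1% of genes, that of Fnip2 exceeded 53.7%, and those of Fnip1 and Mitf exceeded 47.2% and 36.8%. The median over the members was 2.5, beside a median of 2 over all genes. Since the members are 6 single counts from 1 pooled list, their order carries no error beyond what a change of annotation or threshold shows.

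The 26 interactions reached 11 intergenic bins, 11 introns and 4 exons of protein-coding genes. None reached a bin with a basic start of any protein-coding gene, their own alternative promoters included, and 4 stayed in the member's own gene. The share of promoter partners over the whole list is not given here. Bin borders and the set of starts matter for this 0. Partner bins lay 14 bp from the start of Irf1 and 177 bp from that of Olfr223, and the Mitf partner bin held a RefSeq model start of Mitf. The median distance of the 26 was 322.5 kb, against 185 kb over the list. Of the 26, 10 were over 500 kb and 5 within 50 kb, beside 15.6% and 13.7% of the list. Flcn gave 11 of the 26, and 6 of the 10 over 500 kb. Its median distance was 510 kb, beside 347.5 kb for Fnip1, 90 kb for Tfec, 40 kb for Fnip2 and 20 kb for Mitf. For the 26, the median ratio was 3.12 beside 3.11 over the list, and the median observed count was 19 beside 27. By gene, the median count was 16 for Flcn, 41 for Tfec, 121 for Fnip1, 195 for Mitf and 246 for Fnip2. Counts fall with distance, and 13 of the 26 counts exceeded more than 50% of those in their distance class. As the ratio rises with distance in the whole list, from a median of 2.42 at 10 to 50 kb to 4.30 at 500 kb and beyond, each ratio is best read within its distance class, and 10 of the 26 lay above their class median. A ratio of at least 4 was reached by 6 of the 26, while 27% of all interactions reached it. For 12 of the 26 the lower end of the interval fell below 2. The partner bins had a median of 3 interactions each, beside a median of 2 and a 90th percentile of 7 over all bins of the list. Only the 1 interaction with the member was listed for 8 partner bins, 6 of Flcn and 2 of Tfec.

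**Figure D1:**
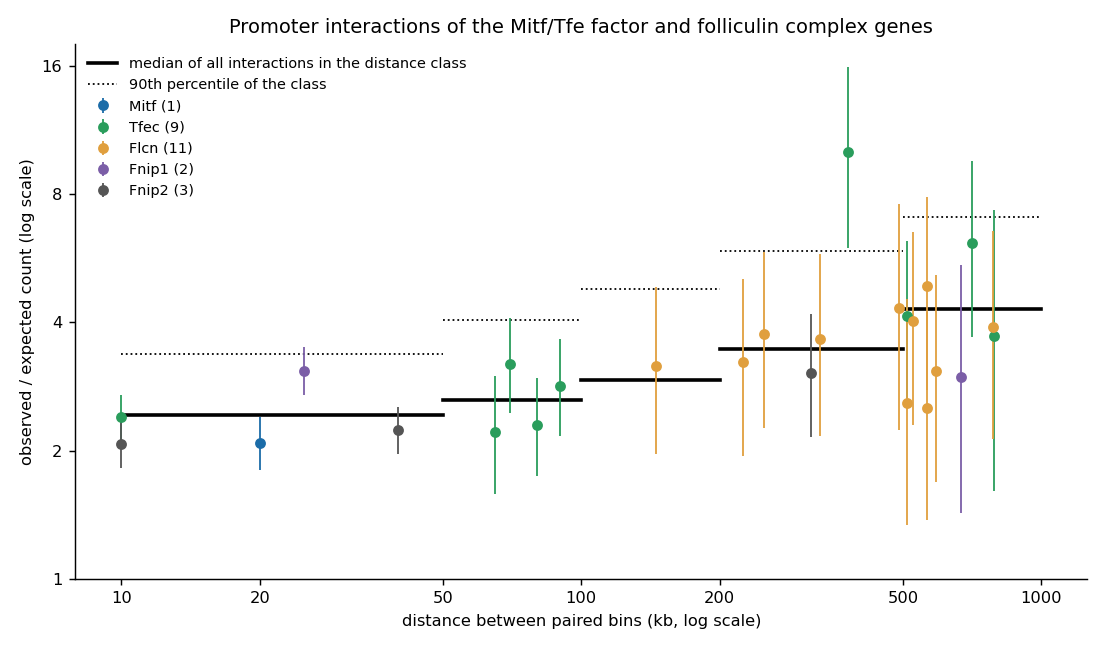
Ratio of observed to expected count (log scale) against the distance between the paired bins in kb (log scale) for the 26 promoter interactions, 1 point each, coloured by gene, with bars for the exact Poisson 95% interval. Thick and dotted black lines give the median and the 90th percentile of all listed interactions in each distance class. The Tfec interaction at 380 kb, with a ratio of 10.1, lies above the 90th percentile of its class, and the Flcn points lie at 145 kb or more.

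Mitf, whose product drives melanocyte and osteoclast genes, spans chr6:97807052-98021349 on the plus strand. Its basic starts fall into 4 bins, beginning at 97805001, 97925001, 97940001 and 97990001. The first bin had 1 interaction and each of the other 3 had none, among them the bin of the melanocyte promoter. The single interaction joined the first promoter to chr6:97825001-97830000, 20 kb downstream in a Mitf intron, with 195 paired reads and a ratio of 2.09 (1.80 to 2.40, FDR 1.76e-18). The count was well supported, and the ratio exceeded that of 13.1% of interactions of 10 to 50 kb.

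The partner bin 20 kb into Mitf was the busier end, with 12 interactions. Over the whole list 6.06% of 129619 bins had at least 12. It holds the start at 97827464 of a RefSeq model transcript whose promoter is printed second above, a start that the basic GENCODE set lacks. The next bin, chr6:97830001-97835000, also had 12, at 15 to 170 kb, and 9 of them had both ends in the gene. Both bins together took part in 24 of the 28 interactions of the whole Mitf gene. Counting the RefSeq start, a choice made after the data were seen, moved the Mitf total from 1 to 12.

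From the bin at 97825001 the interactions reached the promoters of 2 neighbours and the first Mitf promoter. The Frmd4b promoter, 340 kb upstream, had 24 paired reads and a ratio of 3.12, and the Arl6ip5 promoter, 615 kb upstream, had 19 and a ratio of 3.53. Frmd4b encodes a scaffold protein and Arl6ip5 a membrane protein of the endoplasmic reticulum. Within Mitf, the bin at 97960001, 135 kb downstream, had 32 paired reads and a ratio of 3.90 (2.67 to 5.51). The bin at 97995001, 170 kb downstream and next to that of the melanocyte promoter, had 24 and a ratio of 2.87. The first Mitf bin holds 5 GATC sites, where MboI cuts, and the bin at 97825001 holds 17. Among other promoter bins, that of Fnip1 had 18 sites and 2 interactions, that of Tfec 8 and 9, and the first of Tfeb 6 and 0. The 11 member promoter bins had a median of 8 (5 to 18), and all promoter bins a median of 12 with a 10th to 90th percentile range of 7 to 17. The authors' model includes the density of these sites, and their part in the counts was not tested.

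**Figure D2:**
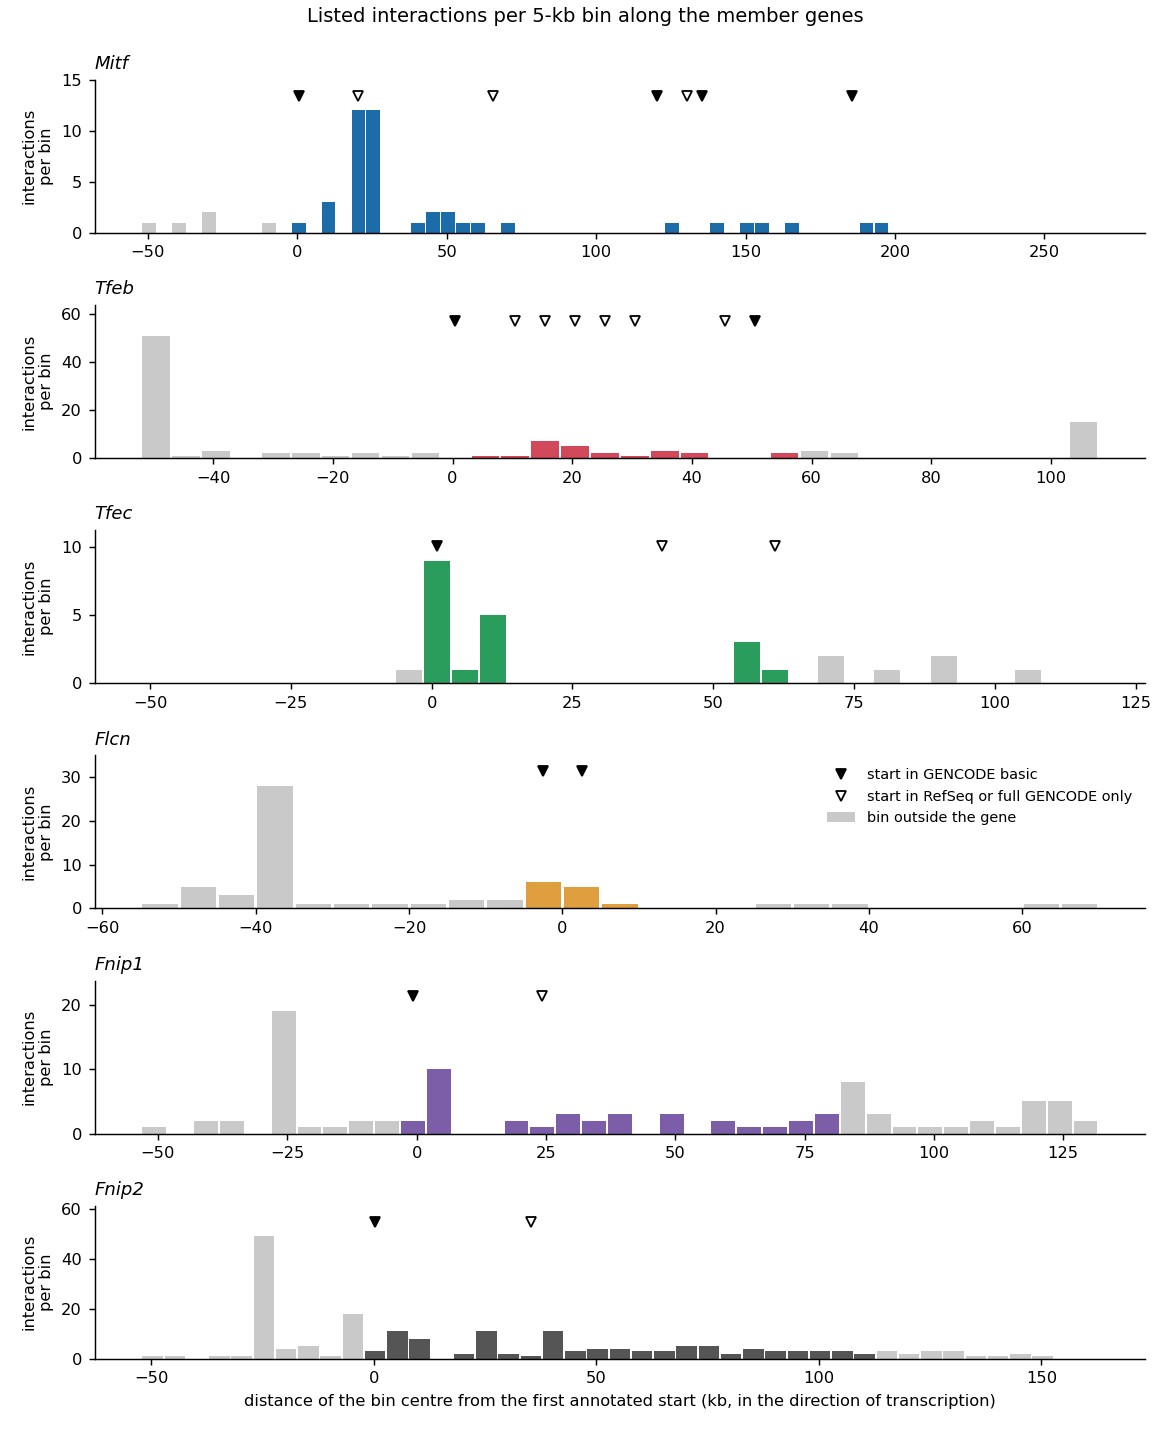
Listed interactions per 5-kb bin (linear axis from 0, a different range for each gene) against the distance of the bin centre from the first start in kb, along each member and 50 kb on either side. Coloured bars are bins that overlap the gene and grey bars are bins outside it, and triangles mark starts of the basic GENCODE set (filled) and starts in RefSeq or the full GENCODE set alone (open). The highest Mitf bars, 12 each, stand 20 kb and more inside the gene, and the highest bars at Tfeb and Fnip2, of 51 and 49, belong to the Tomm6 and Ppid promoters.

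Tfeb, the factor most closely tied to lysosome formation, spans chr17:47737030-47792419 on the plus strand. Its basic starts lie in bins beginning at 47735001 and 47785001, and both had 0 interactions. The gene body was not empty. In bins overlapping the gene, 22 interactions were listed, and 9 of its 12 bins took part. At least 1 interaction in the gene body was found for 75.9% of all genes and for all 6 members. Starts outside the basic set lie in several of these bins. The bin at 47750001 had 7 interactions and holds a start at 47754326, and the bin at 47755001 had 5 and holds a start at 47759175. With RefSeq starts added, Tfeb had 14 interactions in place of 0, and with all GENCODE protein-coding starts it had 15.

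The neighbour that the Tfeb gene met most often was Tomm6, which encodes a small subunit of the mitochondrial import channel. Its promoter bin, chr17:47685001-47690000, was paired with 6 Tfeb bins at 55 to 105 kb, with 71 to 152 paired reads and ratios of 2.03 to 3.19. The strongest, to the bin next to the first Tfeb promoter, had 152 paired reads and a ratio of 3.19. The Tomm6 bin had 51 interactions in all, so the 6 were 11.8% of them. The caller placed the 6 in clusters that held 35 and 4 bin pairs. Other promoters were met less often. That of Nfya, a subunit of the CCAAT-binding factor NF-Y, was met at 635 kb with 19 paired reads and a ratio of 3.06 (1.84 to 4.77) and at 645 kb with 10 and a ratio of 2.89 (1.38 to 5.31). The Oard1 promoter at 660 kb had 12 and a ratio of 2.99 (1.54 to 5.22), and the shared promoter bin of Bysl and Med20, 145 kb upstream, had 35 and a ratio of 2.43 (1.69 to 3.38). Between Tfeb and Nfya, exons of the Treml and Trem2 cluster of myeloid receptor genes were met as well. The bin at 47755001 met an exon of Treml2 at 555 kb with 10 paired reads and a ratio of 6.72 (3.22 to 12.4). It also met an exon of Trem2, a lipid receptor of macrophages, at 595 kb with 7 paired reads and a ratio of 3.62 (1.45 to 7.45). The bin at 47750001 met an exon of Treml1 at 610 kb with 11 paired reads and a ratio of 5.18 (2.58 to 9.26). These 3 counts are small, the interval for Trem2 falls below 2, and none of the 3 partner bins held a protein-coding TSS. The Treml1 bin ended only 82 bp from the Treml1 start, however. The Treml2 bin lay 1141 bp from the start of B430306N03Rik, and the Trem2 bin 3513 bp from that of Trem2.

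Tfec, a relative of Mitf, spans chr6:16833373-16898441 on the minus strand and has 1 promoter bin in the basic set, chr6:16895001-16900000, with 9 interactions. Of its partners, 8 were intergenic and 1 was in its own intron. The strongest by ratio lay 380 kb downstream at chr6:16515001-16520000, where 18 paired reads were observed and the ratio was 10.1 (5.96 to 15.9, FDR 6.43e-12). In its distance class 98.9% of interactions had a lower ratio, and over all distances 0.779% of the list had a ratio of at least 10. This bin had no other interaction, and the nearest start of another protein-coding gene, that of Tes, was 545 kb away. The ratio is large because 1.79 paired reads were expected, and the count itself is small.

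The next ratios at the Tfec promoter belonged to far upstream bins. At 705 kb, in a bin 32.0 kb from the Capza2 start, 19 paired reads gave a ratio of 6.12 (3.69 to 9.56), and at 510 kb, 53.8 kb from the Met start, 23 gave 4.13 (2.62 to 6.19). At 790 kb, 3.95 kb from the start of St7, 8 paired reads gave 3.72 (1.61 to 7.33). The highest counts were close by. The own intron 10 kb downstream had 272 paired reads and a ratio of 2.39 (2.12 to 2.69), and bins 70 and 90 kb downstream had 63 and 60 with ratios of 3.19 and 2.83. The remaining pair, 80 and 65 kb upstream, had 58 and 41 with ratios of 2.29 and 2.21. Tfec thus had both near contacts with counts of 41 or more and far contacts with counts of 23 or fewer. Counts fall with distance over the whole list, from a median of 131 at 10 to 50 kb to 14 at 500 kb and beyond. Within their distance classes, the near Tfec counts exceeded 35.3% to 83.9% of interactions and the far ones 2.34% to 87.3%.

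Further Tfec starts added little. The bin at 16855001, with the start of a RefSeq model transcript at 16856028, had 0 interactions, and the bin at 16835001, with a start of a short transcript of the full GENCODE set, had 1 with 18 paired reads and a ratio of 4.42. Inside the gene, the intron bin at 16885001 was paired with the promoter of Met, the hepatocyte growth factor receptor gene, at 575 kb with 38 paired reads and a ratio of 5.92 (4.19 to 8.13). The bin at 16840001 met the same promoter at 620 kb with 12 and a ratio of 2.83, and the bin at 16890001 met that of Cav2, a caveolin, at 390 kb with 22 and a ratio of 3.08. The Tfec promoter bin itself was listed with neither.

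Flcn, the gene for folliculin, spans chr11:59791408-59810016 on the minus strand, and its basic starts at 59809588 and 59810016 fall on either side of a bin border. The bin at 59805001 had 5 interactions and the bin at 59810001 had 6, with no partner bin in common. All 11 were distant, at 145 kb or more, and 8 of them lay downstream. None was in Flcn itself or within 50 kb. Their observed counts ran from 12 to 21, ratios from 2.52 to 4.85, and for 5 of the 11 the lower end of the interval was below 2. At an FDR under 1e-06 none of the 11 was left. Counted as clusters of the caller, Flcn had 7 and Tfec 8, and with the outermost start alone Flcn had 6 and Tfec 9, so their order depended on the counting.

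The Flcn partners lay in introns (6), exons (3) and between genes (2). From the bin at 59810001, the highest ratio was that to an exon of Wnt3a, a Wnt ligand gene, at 565 kb with 16 paired reads and a ratio of 4.85 (2.78 to 7.88). An intron of Tom1l2, an endosomal sorting gene, followed at 490 kb with 12 and a ratio of 4.33 (2.24 to 7.56). An intron of Nlrp3, the sensor of the inflammasome, followed at 250 kb with 19 and a ratio of 3.75. The highest count, 21 with a ratio of 3.16, was that to an intron of Mprip at 145 kb, and an exon of Olfr223 at 225 kb had 19 with a ratio of 3.23. An intergenic bin at 330 kb had 18 with a ratio of 3.66. From the bin at 59805001, Tom1l2 was met again at 525 kb with 16 paired reads and a ratio of 4.02 (2.30 to 6.53) and at 510 kb with 12 and a ratio of 2.59. An intron of Arf1 at 590 kb had 14 and a ratio of 3.08, and an intergenic bin at 565 kb had 14 and a ratio of 2.52. Introns of Tom1l2 were thus met by 3 pairs from the 2 adjoining Flcn bins, and the 3 pairs made up 1 cluster of the caller.

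Fnip1, which encodes a folliculin partner, spans chr11:54438199-54518235 on the plus strand and has its promoter in chr11:54435001-54440000. Its stronger interaction reached chr11:54410001-54415000, 25 kb upstream in an exon of Meikin, with 232 paired reads and a ratio of 3.08 (2.70 to 3.50, FDR 2.10e-45). In its distance class 83.4% of interactions had a lower ratio. The Meikin bin had 19 interactions, among them the promoters of Il3, Slc22a4 and P4ha2. The other interaction of Fnip1 lay 670 kb upstream at chr11:53765001-53770000, 14 bp outside of which is the start of Irf1, an interferon response factor. It had 10 paired reads and a ratio of 2.97 (1.42 to 5.46, FDR 0.00695), with an interval that falls below 2.

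The next bin downstream, chr11:54440001-54445000, had 10 interactions against 2 in the bin of the Fnip1 start. Counting bins within 2500 bp of a start raised Fnip1 from 2 to 12. Along the gene 31 interactions were listed, in 13 of 17 bins. Of these, 8 met the promoter of Hint1, a nucleotide hydrolase gene, at 350 to 425 kb with 16 to 34 paired reads and ratios of 2.51 to 4.47. The promoter of Slc22a4, an organic cation transporter gene, was met by 7 at 415 to 485 kb with 14 to 32 paired reads and ratios of 2.24 to 5.67. Lyrm7 and Rapgef6 promoters were met once each. The Hint1 bin had 125 interactions in all, so its 8 with Fnip1 were 6.40% of them, and the 7 of Slc22a4 were 18.4% of its 38. The caller placed the 8 in clusters that held 6 and 141 bin pairs, and the 7 in clusters that held 6 and 2.

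Fnip2, the other folliculin partner gene, spans chr3:79455974-79567796 on the minus strand, with its promoter in chr3:79565001-79570000. All 3 of its interactions lay downstream in introns. Those in Fnip2 itself, at 10 and 40 kb, had 255 and 246 paired reads with ratios of 2.07 (1.82 to 2.34) and 2.24 (1.97 to 2.54). The third was in an intron of Rapgef2, a guanine nucleotide exchange factor gene, at 315 kb with 38 paired reads and a ratio of 3.04 (2.15 to 4.18, FDR 5.03e-08). All 3 ratios were below the medians of their distance classes, while their counts were above.

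The body of Fnip2 had the most interactions of the members, 80, in 22 of its 23 bins. The upstream neighbour bin at 79570001 had 18, and counting bins within 2500 bp of the start raised Fnip2 from 3 to 21. Of the 80, 16 had both ends in Fnip2 and 30 reached promoter bins of other genes. The promoter bin met most often was that of Ppid, which encodes a cyclophilin, at chr3:79590001-79595000. This bin had 49 interactions, and 14 of them, 28.6%, reached Fnip2 bins at 70 to 135 kb with 58 to 224 paired reads and ratios of 2.59 to 5.36. All 14 were in the same cluster of the caller, which held 48 bin pairs. The strongest by ratio, with the bin at 79510001, had 190 paired reads. A promoter of Rapgef2 was met by 10 at 170 to 270 kb with 20 to 74 paired reads, another start of the same gene by 1, and the shared bin of Etfdh and 4930579G24Rik by 5 with 38 to 55. The Fnip2 promoter bin itself was in none of these interactions. Its own pairs at 10 and 40 kb were, however, in the same cluster of 48 bin pairs as the 14 with Ppid. The 10 with Rapgef2 were in clusters of 15 and 4 bin pairs, and the 5 with the Etfdh bin in a cluster of 7.

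**Figure D3:**
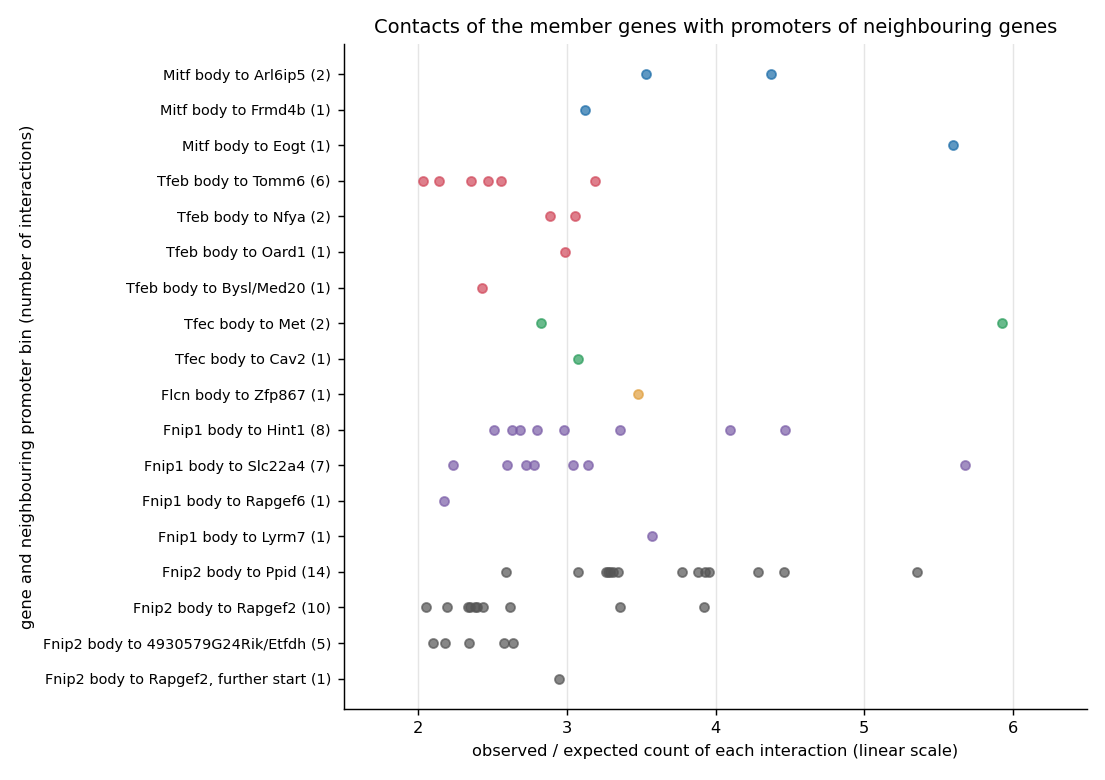
Ratio of observed to expected count (linear axis) of every listed interaction between a bin overlapping a member gene and a promoter bin of another protein-coding gene, 1 point each, with a row for each pair of gene and promoter bin and the number of interactions in parentheses. The rows of Fnip2 with Ppid, 14 points from 2.59 to 5.36, and with Rapgef2, 10 points, are the fullest, followed by Fnip1 with Hint1 and Slc22a4. Many points of a row share a cluster of the caller.

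Set against gene size, the bodies of the members were not all busy. Per bin of the gene, Fnip2 exceeded 71.9% of genes, Flcn 63.3%, Tfeb and Fnip1 57.1% each, Tfec 50.1% and Mitf 38.9%. At the bin of the first start, all genes had a mean of 8.07 and a median of 2 interactions. The members had 9 at Tfec, 6 at Flcn, 3 at Fnip2, 2 at Fnip1, 1 at Mitf and 0 at Tfeb.

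In the 26 partner bins, CACGTG was found in 17, or 65.4%, beside 47.0% of all bins of the list, and TCACGTG in 9, or 34.6%, beside 21.5%. The M-box was found in 53.8% beside 63.5%, AP-1 in 84.6% beside 78.2%, PU.1 in 80.8% beside 82.1%, EGR in 15.4% beside 17.7%, and the cyclic AMP response element in 7.69% beside 3.63%. Motifs of this length occur often in 5 kb, and with 26 bins, a share moves visibly with each single bin.

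The genes that act on these factors were taken from lists of the pathway and counted in the same way. Over all genes, 63.2% had an interaction and the median was 2. Of 9 Rag and Ragulator genes, which anchor mTORC1 at the lysosome, 8 had an interaction and Rragd had none. Their median was 20, with 52 at Slc38a9, a lysosomal arginine sensor, and 47 at Rraga. Of 21 genes of mTORC1 and its regulators, 20 had an interaction and Castor2 had none, with a median of 15, 61 at Akt1s1 and 57 at Sesn2. All 12 genes for kinases, phosphatases and a channel that act on the factors had at least 3 (median 8.5), with 135 at Ppp3ca, a calcineurin subunit, and 67 at Gsk3b. All 7 AMPK subunit genes had at least 1 (median 16), with 32 at Prkab1 and 19 at Prkag2. The members' own median of 2.5 was below the medians of these 4 lists and near the median of 2 over all genes.

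Targets of Mitf/Tfe factors had a median of 6 over 25 genes, 19 (76%) with an interaction, beside 63.2% of all genes. Atp6v0d2, a proton pump subunit gene, had 27 and Map1lc3b, an autophagosome gene, had 22, whereas Atp6v0d1, Atp6v1h, Clcn7, Ctsd, Ppargc1a and Rragd had 0. Flcn and Rragd are in this list as known targets, and Rragd is in the first list too. Of 12 other genes with the same kind of DNA-binding domain, 9 (75%) had an interaction, with a median of 24.5, 99 at Usf2 and 42 at Max, while Mlxip, Mlxipl and Myc had 0. A promoter bin at 0 says only that no pair passed the caller there.

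**Figure D4:**
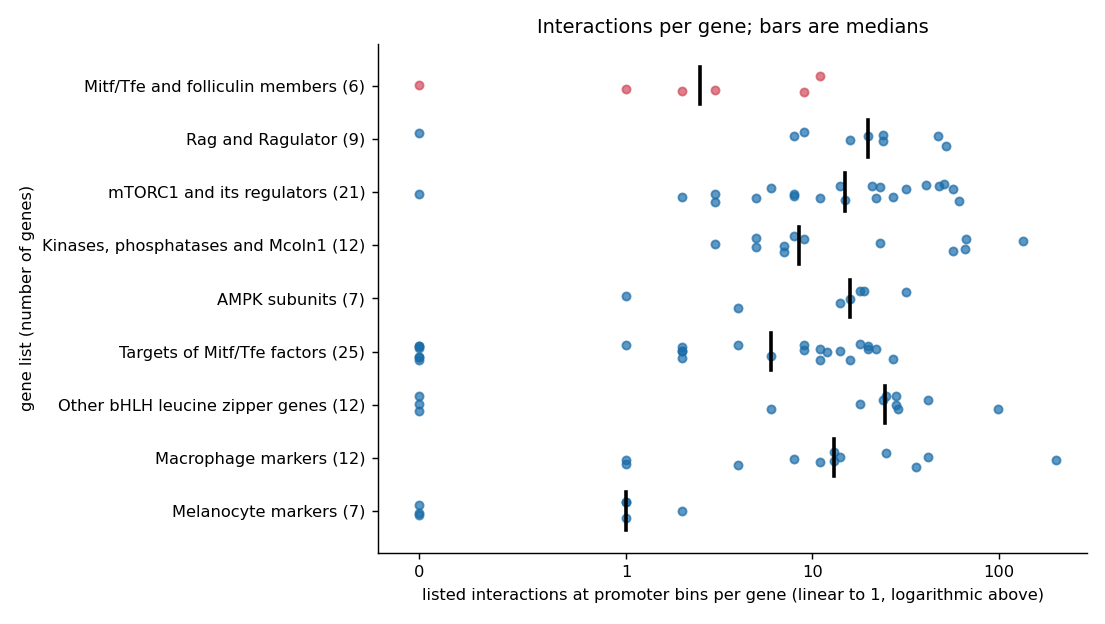
Listed interactions at promoter bins per gene (linear to 1, logarithmic above), 1 point per gene, for the 6 members, the 6 pathway lists and 2 marker lists, with a black bar at the median of each list. The members run from 0 to 11 with a median of 2.5 (2 over all genes, not drawn), the Rag and Ragulator genes have a median of 20, and the melanocyte markers none above 2.

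Cell type markers were counted as a check of the labelled cells, beside the 63.2% of all genes that had an interaction. All 12 macrophage markers had an interaction, with a median of 13 and 204 at Maf. Of 7 melanocyte markers, 4 had any, none had more than 2, and Tyr, Tyrp1 and Dct, enzymes of pigment synthesis, had 0. An interaction was found for 3 of 6 osteoclast, 1 of 7 mast cell, 1 of 5 T cell, 3 of 5 B cell, 5 of 6 neutrophil and 1 of 5 fibroblast markers. The highest of these other markers had 9.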

How the data were processed

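H3K4me3 HiChIP had been done on 4 BMDM samples, grouped by their titles as 2 basal and 2 treated with IL-4. Bowtie2, bedtools and mm10 are named in the processing notes of the submitters. As the methods of the study state, contacts were called by the authors with MAPS on the merge of all samples, in bins of 5000 bp and anchored at H3K4me3 ChIP-seq peaks. Bins without the mark therefore appear only as partners. Each pair has the deposited count of observed paired reads and a deposited expected value, a signal from the authors' model. Its false discovery rate is a p-value that the authors adjusted, and all were under 0.01. The deposited −log10 p summed per cluster was not used, and cluster labels and sizes served to count clusters. All values were pooled over conditions and replicates, so the edgeR test that had been planned between basal and IL-4 was not possible, and no test was run. The list holds 19 autosomes.

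Bins were joined to GENCODE M21 starts, a promoter bin being one with a protein-coding start. The positions are in mm10 and counted from 1. Ratios of observed to expected counts carry exact Poisson 95% intervals. Motifs were searched on both strands in RefSeq promoters of 300 bases and in GRCm38 bins, and the cyclic AMP response element was added after the sequences were seen. All 6 members had promoter entries. For Flcn, 1 interaction is counted but not reported here. The members and lists were chosen with earlier results of these data known. Named were all members and promoter bins, at each the top 3 interactions by count and the top 3 by ratio, every partner holding another gene's start, and in each pathway list the 2 genes with most interactions and those at 0. Interactions of gene bodies and of further starts were described after the data were seen, and the genes, bins and partners named there were chosen after their values were seen. The counting was tested on simulated data. Scripts ran in Python 3.11.15 (pandas 2.3.3, numpy 2.4.6, scipy 1.17.1, matplotlib 3.10.9).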

Additional observations from a re-analysis of the deposited data

How the results depend on the processing

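With starts of all basic transcripts and with an observed count of at least 10, no count moved by more than 1.5 times. At an FDR under 1e-06, 12 of 26 interactions were left, 0 for Flcn and 1 for Fnip1. At a ratio of at least 4, 6 were left for 2 members, with 3 for Flcn, 3 for Tfec and 0 for Mitf, Fnip1 and Fnip2. When only the pair with the lowest FDR of each whole cluster was kept, before pairs were assigned to genes, 15 were left for 3 members, with 7 for Flcn, 1 for Fnip1 and 0 for Mitf and Fnip2. Flcn had 7 counted as clusters and 6 with the outermost start alone. With bins within 2500 bp of a start there were 59, with 12 for Fnip1, 21 for Fnip2, 2 for Mitf and 3 for Tfeb. Added after the data were seen, RefSeq starts gave 52, with 12 for Mitf and 14 for Tfeb, and all GENCODE protein-coding starts gave 43, with 15 for Tfeb. Stricter limits and merged clusters can only lower a count, and added starts can only raise it. No paired analysis was possible because the list was pooled over all 4 samples. For the same reason, leaving out replicates and the planned comparison of basal with IL-4 could not be run. Depth per sample is unknown, and intervals cover counting error only.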
